A study of Homo sapiens with 6 samples.

Results

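The genes described here encode the enzymes of glycolysis, the kinases that control entry of pyruvate into mitochondria, a few enzymes of glycogen metabolism, and the main carriers of glucose and lactate at the plasma membrane. They were chosen by symbol as 33 entries of the gene table out of 59653 in all, and all 33 passed the filter on low counts, as did 19008 genes in all. RNA was sequenced from SK-OV3, an established human ovarian carcinoma cell line of wild-type genotype in the labels, 48 h after transfection. The siControl group (3 libraries) received a pool of non-targeting siRNAs, and the siPVT1 group (3 libraries) received a pool of siRNAs against PVT1, a long non-coding RNA encoded beside MYC. The comparison asks how these genes differ, isoform by isoform, between siPVT1 and siControl cells. The design holds 1 cell line and 1 siRNA pool per group, so that an effect of lower PVT1 and any other effect of its pool cannot be told apart. No label says that the libraries of a group came from separate cultures, and p-values then measure only the spread between these libraries, which may be technical.

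Glycolysis splits glucose into pyruvate in a chain of cytosolic enzymes, and most steps can be run by several related enzymes from separate genes with different tissue distribution and control. Pyruvate is either reduced to lactate, which leaves the cell with a proton through monocarboxylate carriers, or oxidised in mitochondria by pyruvate dehydrogenase, which the PDK kinases switch off. Many tumour cells take up much glucose and release lactate even when oxygen is present, and hypoxia-inducible factors and MYC are well-known activators of genes of this chain.

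The libraries held between 28383171 and 35059576 gene counts each. PVT1, the targeted gene, had normalized counts (counts scaled to a common library size by the TMM method) of 3298, 4090.5 and 3377 in the siControl libraries and 2349.7, 2111 and 2062 in the siPVT1 libraries. The groups did not overlap, and PVT1 fell in siPVT1 to 0.61 of its siControl level (log2 fold change -0.72, SE 0.0967, edgeR adjusted p = 3.42e-04). This fall was smaller than the log2 fold change of 1 in size that is used below to call a gene. KRT8, KRT18 and PAX8, markers of ovarian carcinoma epithelium, were present in every library, EPCAM ranged from 41.3 to 127 and MUC1 from 3.03 to 9.83 normalized counts. Of the leukocyte markers, CD3E was at 0 in every library, PTPRC did not exceed 2.02 and CD14 ranged from 2.19 to 9.52. CD14 was lower in siPVT1, but it passed the filter on low counts only through the siControl libraries, so no test is given for it. LYZ ranged from 4.62 to 249, with replicate 2 the highest library in both groups (249 in siControl and 86.3 in siPVT1). The summed level of 7 carcinoma markers ranged from 19900 to 22200 in siControl and from 27900 to 31100 in siPVT1, most of it KRT8 and KRT18. KRT8, KRT18, PAX8 and KRT19 rose, KRT19 the most (log2 fold change 2.30, edgeR adjusted p = 1.03e-04). ERBB2 fell (log2 fold change -0.43, edgeR adjusted p = 0.00106), and EPCAM and MUC1 did not pass the test. The sum of 3 endothelial markers ranged from 2050 to 2070 in siControl and from 8610 to 10900 in siPVT1, nearly all of it CDH5. The sum of 4 fibroblast markers ranged from 211 to 220 in siControl and from 797 to 834 in siPVT1, nearly all of it COL1A1 and PDGFRB. LUM had means of 15.9 in siControl and 7.23 in siPVT1, and DCN was at 1.11 or less in each library. The part of these marker shifts in the results was not tested.

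Most of the glycolytic genes were higher in siPVT1 cells. A gene was called when its adjusted p was under 0.05 and its log2 fold change was at least 1 in size. By this rule 14 of 33 genes rose and 0 fell, against 11.8% and 9.64% of all tested genes (21.5% in either direction). By adjusted p alone, 27 rose and 3 fell, where 29.5% and 28.4% of all tested genes did so (57.9% together). The values of the siControl and siPVT1 libraries did not overlap for 29 of the 33 genes (65.6% of all tested genes). Of these, 27 were higher in siPVT1 and 2 lower, where 33.2% and 32.3% of all tested genes were. The median log2 fold change of the 33 genes was 0.91, beside 0.00138 over all tested genes, and the values ran from -0.51 (PFKFB2) to 3.87 (PFKFB4). Scaling by the total count alone lowered the median of all genes to -0.148 and that of the 33 genes to 0.76, and left 11 called higher, with PFKP, PFKFB3 and PDK3 each at 0.98.

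**Figure D1:**
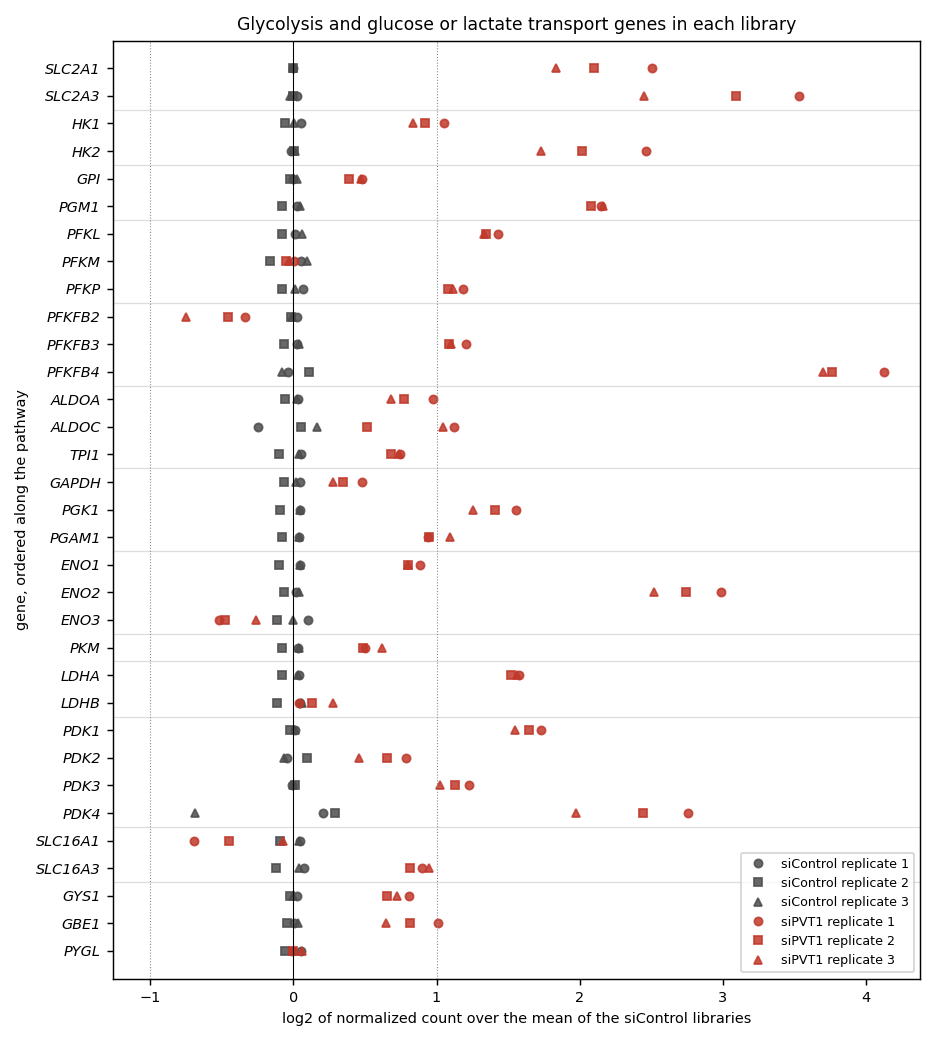
Normalized count of each of the 33 genes in each library, as the log2 difference from the siControl mean of that gene, with 1 point per library and the genes ordered by role. The siPVT1 points lie to the right of all siControl points for 27 genes, farthest for PFKFB4, SLC2A3, ENO2 and PDK4, and to the left for PFKFB2 and ENO3.

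A shift in the same direction was seen in the share of all gene counts that these 33 genes took. This measure uses no TMM factor and amounts to scaling by the total count. The share was 1.61, 1.56 and 1.62% in the siControl libraries and 2.67, 2.49 and 2.41% in the siPVT1 libraries, or 1.60% ± 0.0283 to 2.53% ± 0.132 (mean and SD, n = 3). The groups did not overlap (p = 0.1 by an exact permutation test, two-sided, and 3 against 3 libraries cannot give less). The share of GAPDH, the most abundant of the genes, went from 0.609% ± 0.00855 to 0.710% ± 0.0508, which is 0.101 of the total difference of 0.929 percentage points. Without GAPDH the share went from 0.988% ± 0.0202 to 1.82% ± 0.0820, and the share of LDHA alone from 0.118% ± 0.00221 to 0.313% ± 0.00412.

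**Figure D2:**
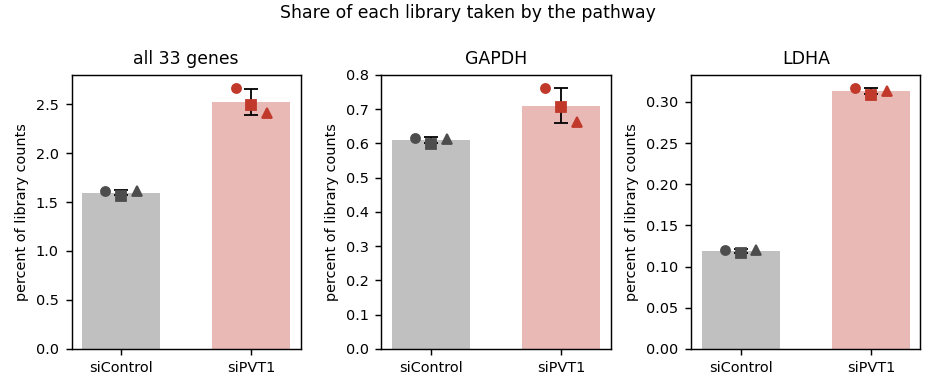
Percent of each library's gene counts that fell on the 33 genes, on GAPDH and on LDHA, with 1 point per library, bars at the group means and error lines for the SD (n = 3). The 3 siPVT1 libraries lie above the 3 siControl libraries in all 3 panels, with GAPDH at 0.710% against 0.609%.

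The 250 bases before the annotated start are shown for LDHA and LDHB, which encode alternative subunits of lactate dehydrogenase but differed in response, and for HK2, PGK1, ENO2 and PDK1, which were called higher and stand at different points of the chain. The sequences are from RefSeq (GRCh38.p14), 5′ to 3′ on the strand of the gene, and capitals mark each match to ACGTG or GCGTG on either strand. These are the core letters of sites for hypoxia-inducible factors, and CACGTG is that of sites for MYC. Matches that overlap form 1 run of capitals, and a CACGTG counts on each strand.
LDHA, chr11:18394313-18394562, plus strand: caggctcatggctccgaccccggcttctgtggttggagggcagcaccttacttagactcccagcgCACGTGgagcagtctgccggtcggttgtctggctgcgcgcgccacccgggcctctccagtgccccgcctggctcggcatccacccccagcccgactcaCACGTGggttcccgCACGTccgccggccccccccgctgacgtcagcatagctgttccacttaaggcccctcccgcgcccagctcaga
LDHB, chr12:21657843-21658092, minus strand: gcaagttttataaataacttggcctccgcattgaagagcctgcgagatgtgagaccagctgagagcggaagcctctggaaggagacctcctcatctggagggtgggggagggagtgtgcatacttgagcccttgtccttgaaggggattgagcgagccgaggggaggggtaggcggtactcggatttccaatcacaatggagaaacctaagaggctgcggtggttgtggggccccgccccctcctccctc
PGK1, chrX:78103998-78104247, plus strand: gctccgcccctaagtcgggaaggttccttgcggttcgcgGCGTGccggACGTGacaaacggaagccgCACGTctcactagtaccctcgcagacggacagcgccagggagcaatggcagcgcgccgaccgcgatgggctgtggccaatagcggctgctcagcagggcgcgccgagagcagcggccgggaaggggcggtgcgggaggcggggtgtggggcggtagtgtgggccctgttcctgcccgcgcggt
ENO2, chr12:6914330-6914579, plus strand: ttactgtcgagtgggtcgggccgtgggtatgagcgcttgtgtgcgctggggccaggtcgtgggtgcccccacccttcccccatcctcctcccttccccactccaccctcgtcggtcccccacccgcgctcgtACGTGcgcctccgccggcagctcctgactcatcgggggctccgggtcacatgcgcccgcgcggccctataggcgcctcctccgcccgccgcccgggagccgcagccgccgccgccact
HK2, chr2:74833877-74834126, plus strand: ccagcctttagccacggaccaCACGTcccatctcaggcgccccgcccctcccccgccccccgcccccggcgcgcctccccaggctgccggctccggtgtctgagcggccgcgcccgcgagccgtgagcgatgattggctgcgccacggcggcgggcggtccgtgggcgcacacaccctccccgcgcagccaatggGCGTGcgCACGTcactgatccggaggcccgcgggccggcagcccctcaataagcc
PDK1, chr2:172555840-172556089, plus strand: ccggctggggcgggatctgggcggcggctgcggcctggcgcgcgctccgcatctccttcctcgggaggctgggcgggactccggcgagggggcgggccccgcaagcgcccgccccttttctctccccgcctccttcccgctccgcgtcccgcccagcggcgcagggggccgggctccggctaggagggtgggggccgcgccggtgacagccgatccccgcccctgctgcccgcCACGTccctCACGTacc

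The window of LDHA held 5 matches to ACGTG and that of LDHB held 0. HK2 held 2, PDK1 2, PGK1 2 and ENO2 1. A window was given for 30 of the 33 genes, and 27 of these began within 500 bases of the annotated canonical start and were used. ACGTG was present in 13 of the 27 windows (48.1%), compared with 23.1% of the 11299 windows of tested genes. All 13 belonged to the 24 genes that rose. The genes shown are not typical here: every called gene shown held ACGTG, against 7 of the 13 windows used of genes called higher. PFKFB4, which rose the most, had no ACGTG. Only 3 windows used were of genes that did not rise (LDHB, ENO3 and PYGL), and these had none, but 3 are too few for a comparison. ACGTG was missing from the windows of 11 genes that rose, and of these SLC2A1, PGM1, PFKP, TPI1, PKM and PDK4 also had no GCGTG. The related letters GCGTG were present in 11 windows (40.7%) and in 46.2% of those of tested genes. Either ACGTG or GCGTG was present in 18 windows (66.7%) and in 57.8% of those of tested genes, a smaller gap than for ACGTG alone. These are matches of letters in a short window and say nothing of which factor was bound.

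At the entry of the chain, both glucose carriers rose. SLC2A1 (GLUT1), the carrier for basal glucose uptake in most cells, had normalized counts of 5824, 5824 and 5814 in the siControl libraries and 33036, 24952 and 20749 in the siPVT1 libraries. SLC2A3 (GLUT3), a high-affinity carrier best known from neurons, had 2716, 2671 and 2623 in the siControl libraries and 30805, 22745 and 14598 in the siPVT1 libraries. All siPVT1 libraries lay far above all siControl libraries for both genes, and siPVT1 replicate 3 was the lowest of the siPVT1 group. SLC2A1 rose 4.51-fold (log2 fold change 2.17, SE 0.153, edgeR adjusted p = 1.24e-05) and SLC2A3 8.51-fold (log2 fold change 3.09, SE 0.242, edgeR adjusted p = 2.07e-05). SLC2A14, a near-identical copy of SLC2A3 whose reads may be split with it, was near the floor, with 39 counts over all libraries. Its log2 fold change was 0.034 (SE 0.558, edgeR adjusted p = 0.964). SLC2A3 summed with SLC2A14 and with the SLC2A3 pseudogenes gave a log2 fold change of 3.07.

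Of the hexokinases, which trap glucose in the cell as glucose 6-phosphate, HK2 moved more than HK1. HK2, the isoform typical of muscle and many tumours, had normalized counts of 1535, 1556 and 1568 in the siControl libraries and 8557, 6275 and 5151 in the siPVT1 libraries. HK1, the widely expressed isoform, had 9460.0, 8738 and 9154 in the siControl libraries and 18897, 17224 and 16297 in the siPVT1 libraries. The groups were separate for both. HK2 rose 4.29-fold (log2 fold change 2.10, SE 0.167, edgeR adjusted p = 2.26e-05) and HK1 1.92-fold (log2 fold change 0.94, SE 0.0707, edgeR adjusted p = 1.69e-05), so that HK1 stayed under the fold threshold. HK1 remained the more abundant per kilobase of transcript. GPI, which converts glucose 6-phosphate to fructose 6-phosphate, had a log2 fold change of 0.45 (edgeR adjusted p = 2.08e-04). PGM1, which links glucose 6-phosphate to glycogen through glucose 1-phosphate, went from 1165 ± 53.7 to 5104 ± 161 normalized counts (SD, n = 3) and rose 4.38-fold (log2 fold change 2.13, SE 0.0635, edgeR adjusted p = 4.59e-07). PGM1 shares 197 exon bases on the opposite strand with ITGB3BP, whose log2 fold change was 0.076 (edgeR adjusted p = 0.456).

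Phosphofructokinase, the committed step of glycolysis, is built from subunits of 3 genes that did not move together. PFKM, the muscle-type subunit, had normalized counts of 2591, 2231 and 2666 in the siControl libraries and 2509, 2406 and 2447 in the siPVT1 libraries. PFKL, the liver-type subunit, had 1522, 1426 and 1570.3 in the siControl libraries and 4052, 3822 and 3792 in the siPVT1 libraries. The groups overlapped for PFKM and were fully separate for PFKL. PFKL rose 2.58-fold (log2 fold change 1.37, SE 0.0640, edgeR adjusted p = 1.99e-06), and PFKP, the platelet-type and here the most abundant subunit per kilobase, rose 2.19-fold (log2 fold change 1.13, SE 0.0619, edgeR adjusted p = 3.93e-06). PFKM did not pass the test (log2 fold change -0.025, SE 0.0773, edgeR adjusted p = 0.804). PFKM shares 516 exon bases on the opposite strand with SENP1, whose log2 fold change was -0.53 (edgeR adjusted p = 0.00217), and reads in such a stretch cannot be told apart without strand.

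The bifunctional PFKFB enzymes make and remove fructose 2,6-bisphosphate, the strongest activator of phosphofructokinase, and here gave both the highest and the lowest log2 fold change of the 33 genes. PFKFB4 had normalized counts of 138, 153 and 134 in the siControl libraries and 2466, 1921 and 1837 in the siPVT1 libraries. PFKFB2, an isoform best known from heart and kidney, had 446, 434 and 436 in the siControl libraries and 347, 319 and 261 in the siPVT1 libraries. In siPVT1 every library was above siControl for PFKFB4 and below it for PFKFB2. PFKFB4 rose 14.7-fold (log2 fold change 3.87, SE 0.137, edgeR adjusted p = 7.69e-07). It shares 298 exon bases with UCN2 on the same strand, which had 316 counts over all libraries beside 6368 for PFKFB4. The log2 fold change of UCN2 was 0.81 (edgeR adjusted p = 0.0497). PFKFB3, the isoform with the highest ratio of kinase to phosphatase activity, rose 2.19-fold (log2 fold change 1.13, SE 0.0622, edgeR adjusted p = 3.98e-06). PFKFB2 fell by 0.51 on the log2 scale (SE 0.113, edgeR adjusted p = 0.00503). It shares 315 exon bases with YOD1 on the opposite strand, which had more counts and moved the other way, with a log2 fold change of 0.84 (edgeR adjusted p = 1.78e-05).

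The aldolases and triose phosphate isomerase, in the middle of the chain, rose by less than the fold threshold. ALDOA, the main aldolase, went from 15976 ± 563 to 28089 ± 2926 normalized counts (SD, n = 3) and had a log2 fold change of 0.81 (edgeR adjusted p = 6.94e-05). ALDOC, the brain-type aldolase, was near the bottom of the range, with 18.1, 22.2 and 24.0 in the siControl libraries and 46.8, 30.6 and 44.2 in the siPVT1 libraries. The groups did not overlap, and its rise, with a log2 fold change of 0.91 (edgeR adjusted p = 0.0147), did not pass without siControl replicate 1 (0.80, edgeR adjusted p = 0.0573). TPI1, which interconverts the triose phosphates, rose by 0.72 (edgeR adjusted p = 3.41e-05) on the log2 scale.

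GAPDH, PGK1 and PGAM1 act in succession after the triose phosphates, and PGK1 makes the first ATP of the chain. The normalized counts of GAPDH were 185501, 171759 and 182755 in the siControl libraries and 251148, 229047 and 217941 in the siPVT1 libraries. Those of PGK1 were 17245, 15698 and 17232 in the siControl libraries and 49245, 44302 and 39853 in the siPVT1 libraries. Both were separate between the groups, but by very different margins. GAPDH rose 1.29-fold (log2 fold change 0.37, SE 0.0697, edgeR adjusted p = 0.00215), and PGK1 2.66-fold (log2 fold change 1.41, SE 0.0869, edgeR adjusted p = 6.69e-06). PGK1 shares 97 exon bases on the same strand with ATP7A, whose log2 fold change was 0.062 (edgeR adjusted p = 0.718). PGAM1, which moves the phosphate of phosphoglycerate, rose by 0.99 on the log2 scale (edgeR adjusted p = 1.05e-05), just under the fold threshold. GAPDH is widely used as a reference gene for RNA levels, and here it was higher in every siPVT1 library.

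The enolases spanned a rise and a fall. ENO2, the neuronal enolase, had normalized counts of 2701, 2542 and 2739.8 in the siControl libraries and 21097, 17788 and 15217 in the siPVT1 libraries. ENO1, the ubiquitous and by far most abundant form, had 51044, 46266 and 51159.5 in the siControl libraries and 91267, 86407 and 86240.3 in the siPVT1 libraries. ENO3, the muscle form, had 206, 177 and 191 in the siControl libraries and 134, 138 and 159.7 in the siPVT1 libraries. No enolase overlapped between groups, with siPVT1 above siControl for ENO2 and ENO1 and below it for ENO3. ENO2 rose 6.78-fold (log2 fold change 2.76, SE 0.118, edgeR adjusted p = 1.52e-06) and ENO1 1.78-fold (log2 fold change 0.83, SE 0.0631, edgeR adjusted p = 1.77e-05). ENO3 fell by 0.41 on the log2 scale (edgeR adjusted p = 0.0170). The adjusted p was not under 0.05 without siControl replicate 1, siControl replicate 3 or siPVT1 replicate 2 (0.0670, 0.0501 and 0.0508 by edgeR), where the log2 fold changes were -0.36, -0.42 and -0.39. ENO3 overlaps PFN1 on the opposite strand by 111 exon bases, and PFN1 had 148443 counts over all libraries, compared with 1014 for ENO3. PFN1 moved the other way, with a log2 fold change of 0.58 (edgeR adjusted p = 1.39e-04). PKM, the pyruvate kinase that makes the last ATP of the chain, rose by 0.54 (edgeR adjusted p = 1.85e-04) on the log2 scale.

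The lactate dehydrogenases moved apart. LDHA, whose tetramers favour the reduction of pyruvate to lactate, had normalized counts of 36058, 33245 and 35814 in the siControl libraries and 104447, 100413 and 103393 in the siPVT1 libraries. LDHB, whose tetramers favour the reverse reaction, had 9108, 8149.7 and 9188 in the siControl libraries and 9064, 9651 and 10698 in the siPVT1 libraries. Every siPVT1 library lay far above siControl for LDHA, whereas siPVT1 replicate 1 lay within the siControl range for LDHB. LDHA rose 2.93-fold (log2 fold change 1.55, SE 0.0587, edgeR adjusted p = 9.36e-07), and LDHB did not pass the test (log2 fold change 0.15, SE 0.0798, edgeR adjusted p = 0.134) except when siPVT1 replicate 1 was left out, where its log2 fold change was 0.19 (edgeR adjusted p = 0.0455). LDHAP4, a pseudogene of LDHA with similar sequence, had a log2 fold change of 1.71 (edgeR adjusted p = 1.00e-05), and LDHA summed with its pseudogenes gave 1.54.

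All 4 pyruvate dehydrogenase kinases rose, and 3 of them passed the fold threshold. PDK1, a known target of hypoxia-inducible factors, had normalized counts of 753, 734 and 752 in the siControl libraries and 2480.0, 2333 and 2182 in the siPVT1 libraries. PDK4, an isoform raised by fasting in many tissues, had 8.57, 9.09 and 4.62 in the siControl libraries and 50.1, 40.4 and 29.1 in the siPVT1 libraries. The groups were separate for both, though PDK4 rested on few counts. PDK1 rose 3.12-fold (log2 fold change 1.64, SE 0.0696, edgeR adjusted p = 1.45e-06) and PDK4 5.30-fold (log2 fold change 2.41, SE 0.350, edgeR adjusted p = 5.38e-04). PDK3 rose by 1.13 (edgeR adjusted p = 8.52e-06) and PDK2 by 0.64 (edgeR adjusted p = 0.00113) on the log2 scale. PDK2 shares 2113 exon bases on the opposite strand with SAMD14, whose log2 fold change was 2.55 (edgeR adjusted p = 9.80e-05) on fewer counts.

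The lactate carriers went in opposite directions. SLC16A3 (MCT4), a carrier typical of cells that export lactate, had normalized counts of 6464, 5635 and 6326 in the siControl libraries and 11439, 10795 and 11866 in the siPVT1 libraries. SLC16A1 (MCT1), which carries lactate in either direction in most cells, had 8462, 7671 and 8405 in the siControl libraries and 5049, 5977 and 7777 in the siPVT1 libraries. The groups were separate for SLC16A3, but siPVT1 replicate 3 lay within the siControl range for SLC16A1. SLC16A3 rose 1.85-fold (log2 fold change 0.89, SE 0.0716, edgeR adjusted p = 2.39e-05). SLC16A1 fell by 0.38 on the log2 scale (SE 0.141, edgeR adjusted p = 0.0455). Its adjusted p was not under 0.05 when any 1 siControl library was left out (log2 fold changes -0.36, -0.43 and -0.37), nor without siPVT1 replicate 1 (-0.26) or replicate 2 (-0.36). Without siPVT1 replicate 3 the log2 fold change was -0.58 and the edgeR adjusted p = 5.99e-05. The antisense gene SLC16A1-AS1 shares 231 exon bases with it and had a log2 fold change of -0.46 (edgeR adjusted p = 0.0195). SLC16A3 shares 482 exon bases with CSNK1D, whose log2 fold change was 0.26 (edgeR adjusted p = 0.0125).

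Among the glycogen enzymes, GYS1 (glycogen synthase of muscle type) had a log2 fold change of 0.73 (edgeR adjusted p = 2.96e-05) and GBE1 (the branching enzyme) of 0.83 (edgeR adjusted p = 1.17e-04). PYGL, the liver-type glycogen phosphorylase that releases glucose 1-phosphate, did not pass the test. Its normalized counts were 3203, 2958 and 3088 in the siControl libraries and 3064, 3074 and 3218 in the siPVT1 libraries, and the groups overlapped (log2 fold change 0.017, SE 0.0587, edgeR adjusted p = 0.826).

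Ratios of related genes within each library, which need no scaling factor, set these differences side by side. Gene length cancels in the difference of a ratio between groups if the transcripts used stay the same, but not in the ratio itself. The groups did not overlap for 13 of 14 pairs (exact two-sided permutation, p = 0.1 for each pair, and 0.108 after Benjamini-Hochberg adjustment over the 14 pairs). Of all tested genes taken singly, 65.6% did not overlap, and no such share was computed for pairs. The log2 ratio was higher in siPVT1 by 2.73 for PFKFB4 to PFKFB3 and by 1.92 for ENO2 to ENO1. It was higher by 1.40 for LDHA to LDHB, by 1.30 for SLC16A3 to SLC16A1, by 1.13 for HK2 to HK1 and by 0.88 for SLC2A3 to SLC2A1. Relative to PDK2, the difference was 1.74 for PDK4, 1.005 for PDK1 and 0.49 for PDK3. The ratio was lower for PFKFB2 to PFKFB3 (difference -1.64), PFKM to PFKL (-1.39), ENO3 to ENO1 (-1.24) and PFKP to PFKL (-0.24). Only for ALDOC to ALDOA did the groups overlap (difference 0.081, exact permutation p = 0.5).

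**Figure D3:**
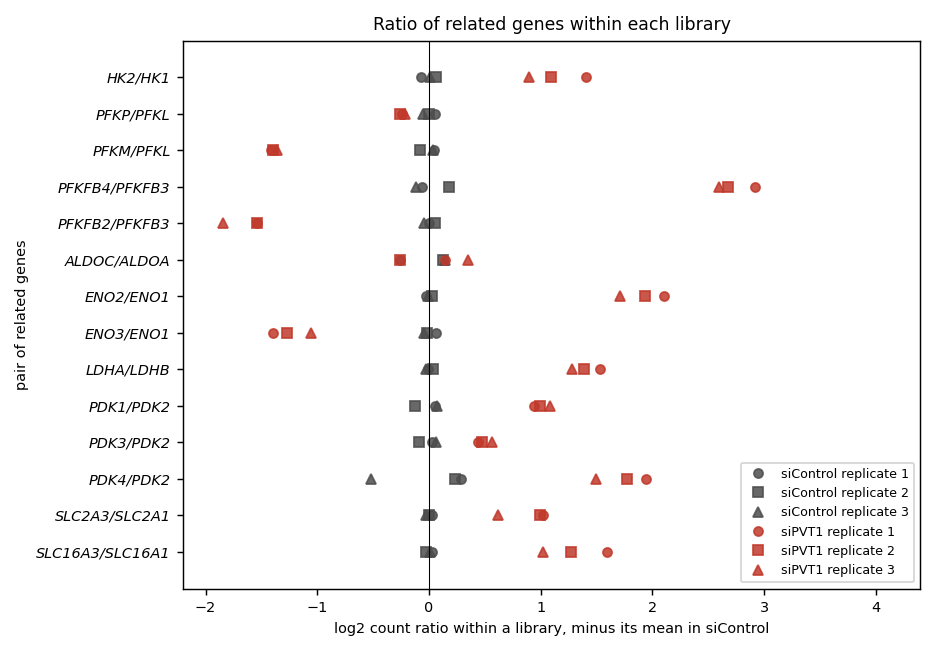
Difference of the log2 ratio of 14 pairs of related genes from its siControl mean, with 1 point per library. The siPVT1 points lie to the right of all siControl points for 9 pairs and to the left for 4, and the PFKFB4 to PFKFB3 ratio differs most, by 2.73.

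Shares of each family's normalized counts per kilobase of the canonical transcript give the same contrasts on a scale of abundance. LDHA went from 69.8% ± 0.487 to 85.9% ± 1.06 (SD, n = 3) of the lactate dehydrogenase total. SLC2A3 went from 28.9% ± 0.338 to 42.7% ± 3.80 (SD, n = 3) of the glucose carriers. SLC16A3 went from 52.0% ± 0.492 to 72.6% ± 3.91 (SD, n = 3) of the lactate carriers, or from 34.0% to 55.8% with the union of all exons as length, so that which carrier was the more abundant in siControl turns on the length used. HK2 went from 9.84% ± 0.412 to 19.4% ± 2.85 (SD, n = 3) of the hexokinases, and ENO2 from 3.99% ± 0.0742 to 13.7% ± 1.59 (SD, n = 3) of the enolases. With the union of all exons as length, these were 16.5% to 30.4% for HK2 and 6.12% to 19.9% for ENO2. In siControl the PFKFB total was mostly PFKFB3, and PFKFB4 went from 5.72% ± 0.574 to 30.1% ± 2.39 (SD, n = 3) of it while PFKFB2 went from 8.77% ± 0.222 to 2.22% ± 0.213 (SD, n = 3). PFKM likewise made up less of the phosphofructokinase total, going from 19.9% ± 0.903 to 9.79% ± 0.142 (SD, n = 3). PDK3 held 72.1% ± 0.657 to 72.1% ± 0.486 (SD, n = 3) of the kinase total, a value that turns on the length used, since the union of all exons as length gave 25.8% to 24.5%.

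Summed over the listed genes of a step, normalized counts per kilobase of the canonical transcript were higher in siPVT1 at all 13 steps. The groups did not overlap at any step (exact two-sided permutation, p = 0.1 for each step). Of all tested genes taken singly, 33.2% were higher without overlap. Steps with 1 gene repeat the result of that gene, and isozymes outside the 33 genes, HKDC1 among them, were not summed. The sums were not repeated with the union of all exons as length or with scaling by the total count. By the union of exons, SLC16A1 went from 1289 to 988 normalized counts per kilobase and SLC16A3 from 665 to 1231. The size of the difference in the lactate carrier sum thus turns on the length used. By the canonical length, the sum differed most for the glucose carriers (5.66-fold), phosphoglycerate kinase (2.66-fold), the lactate dehydrogenases (2.38-fold) and the hexokinases (2.15-fold). It differed least for GAPDH (1.29-fold), the lactate carriers (1.33-fold) and GPI (1.36-fold). On this scale GAPDH was the most abundant gene in both groups, at 140082 ± 5659 and 181099 ± 13155 normalized counts per kilobase (SD, n = 3). By the canonical length ENO1 came next, then PKM and LDHA, which changed places between the groups. By the union of exons TPI1 lay above PKM in both groups, and LDHA above ENO1 in siPVT1. By the canonical length ENO2 was number 17 of 33 in siControl and number 9 in siPVT1, while PDK4 was the least abundant in both.

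**Figure D4:**
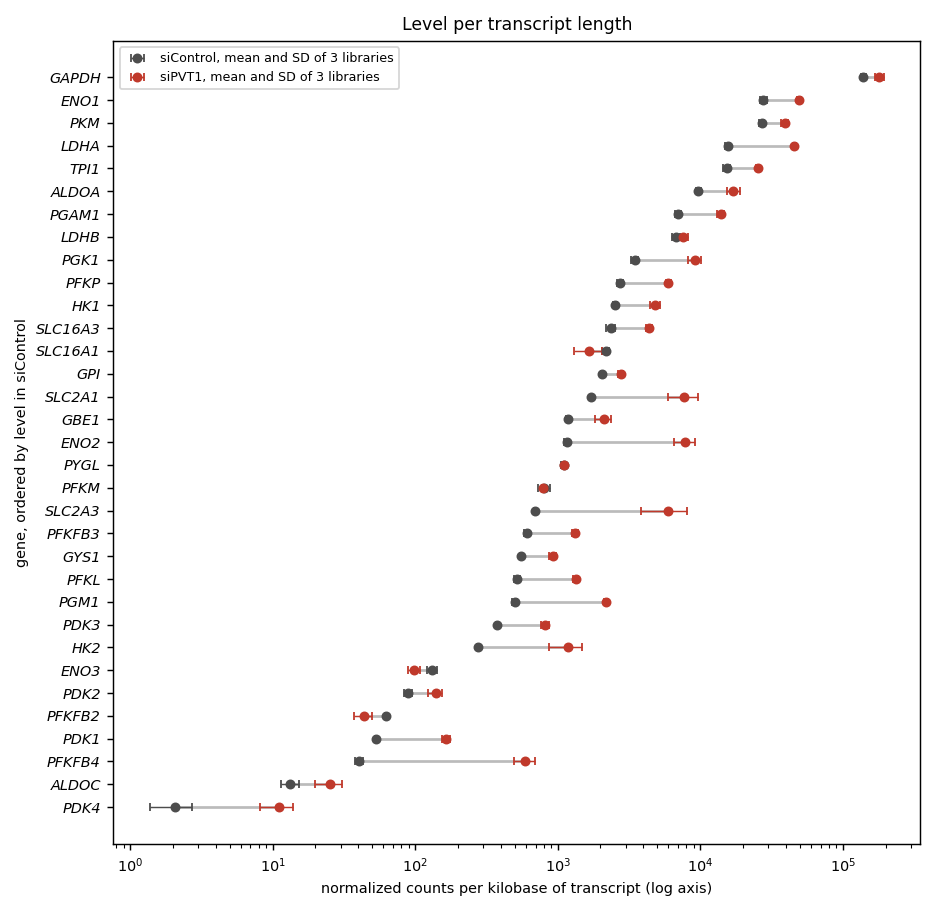
Normalized counts per kilobase of canonical transcript for the 33 genes on a log axis, with group means and SD over 3 libraries per group. GAPDH is highest in both groups at 140082 and 181099, and the gap between groups is wider for genes such as PFKFB4, ENO2 and SLC2A3 than for the most abundant enzymes.

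The siPVT1 libraries differed more among themselves than the siControl libraries did. The coefficient of variation was larger in siPVT1 for 23 of the 33 genes, and above 20% for 6 genes in siPVT1 and for 1 (PDK4) in siControl. SLC2A3 had the widest spread of the glucose carriers, at 35.7% in siPVT1 and 1.73% in siControl. Of the 27 genes that rose, siPVT1 replicate 1 was the highest for 23 and replicate 3 the lowest for 16. Replicate 3 was the siPVT1 library nearest to the siControl mean for 60% of the 30 genes past adjusted p, and for 59% of all 11007 such genes.

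The 33 genes lie on 14 chromosomes (GRCh38). GAPDH, TPI1, ENO2 and SLC2A3 are together on chromosome 12, from base 6534512 to 8019007. These neighbours differed widely, with log2 fold changes of 0.37, 0.72, 2.76 and 3.09. LDHA is at chr11:18394560-18408425 and LDHB at chr12:21635342-21757857. PFKFB4 is at chr3:48517684-48562015, and its canonical transcript has 14 exons.

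Other genes of carbohydrate metabolism and their regulators were divided between rises and falls, as were all tested genes. Of 61 such genes in the table, 43 were tested, 16 rose and 15 fell by adjusted p, and 12 did not pass. These counts include 4 transcription regulators, of which 2 rose and 2 fell, described further below. Past both thresholds 8 rose and 6 fell, and the median log2 fold change of the 43 genes was 0.050. Of all tested genes, 29.5% rose and 28.4% fell by adjusted p, and 11.8% and 9.64% did so past both thresholds. The counts for each list that follow are by adjusted p and stand beside these same shares. Of 9 tested isozymes of the same steps, 2 rose and 4 fell. HKDC1, a further hexokinase-like gene, fell by 2.70 on the log2 scale (SE 0.119, edgeR adjusted p = 1.64e-06), opposite to HK2, and LDHC, the testis-type lactate dehydrogenase, had -1.31 (edgeR adjusted p = 0.0351). LDHD, which acts on D-lactate, had a log2 fold change of 2.84 (edgeR adjusted p = 2.46e-04). Each of these lactate dehydrogenases had few counts (means of 12.1 and 4.70 normalized counts in siControl and siPVT1 for LDHC, 6.40 and 46.8 for LDHD). LDHC passed the filter on low counts through its siControl libraries. PGM2L1, which makes glucose 1,6-bisphosphate, had a log2 fold change of 1.39 (edgeR adjusted p = 1.81e-05).

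Among 11 other glucose and monocarboxylate carriers tested, 5 rose and 3 fell. SLC2A4 (GLUT4), the insulin-regulated carrier, had 1, 0 and 1 deposited counts in siControl and 43, 39 and 44 in siPVT1, and was at least 15.2-fold higher against a floor of 3 counts per library. SLC2A10 had a log2 fold change of 3.03 (edgeR adjusted p = 1.41e-06), SLC2A12 of 1.72 (edgeR adjusted p = 2.42e-05), and SLC2A13, which carries myo-inositol, of 1.13 (edgeR adjusted p = 2.04e-05). Of 6 tested genes of opposing reactions, 2 rose and 3 fell. PDP1, the phosphatase that undoes the work of the PDK kinases, had a log2 fold change of 1.58 (edgeR adjusted p = 1.64e-06), beside 1.64 for PDK1. PCK2, the mitochondrial enzyme that makes phosphoenolpyruvate, had -1.23 (edgeR adjusted p = 6.35e-05), and G6PC3, a glucose 6-phosphatase, -1.07 (edgeR adjusted p = 7.51e-06). Of 13 tested glycogen genes, 5 rose and 3 fell, with PPP1R3B, a glycogen-targeting subunit of protein phosphatase, at 2.72 (edgeR adjusted p = 2.37e-05) and PHKA1, a subunit of phosphorylase kinase, at -1.38 (edgeR adjusted p = 4.40e-06).

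The transcription regulators themselves moved in both directions. HIF1A had a log2 fold change of 0.26 (edgeR adjusted p = 0.00600) and its partner ARNT of 0.66 (edgeR adjusted p = 1.97e-04). EPAS1, which encodes HIF-2α, had -0.35 (edgeR adjusted p = 0.0291), and MYC had -1.01 (edgeR adjusted p = 3.70e-06). MYC was the only one of these 4 regulators past both thresholds, and it fell. These are RNA levels, and the amounts of the proteins were not measured here.

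**Figure D5:**
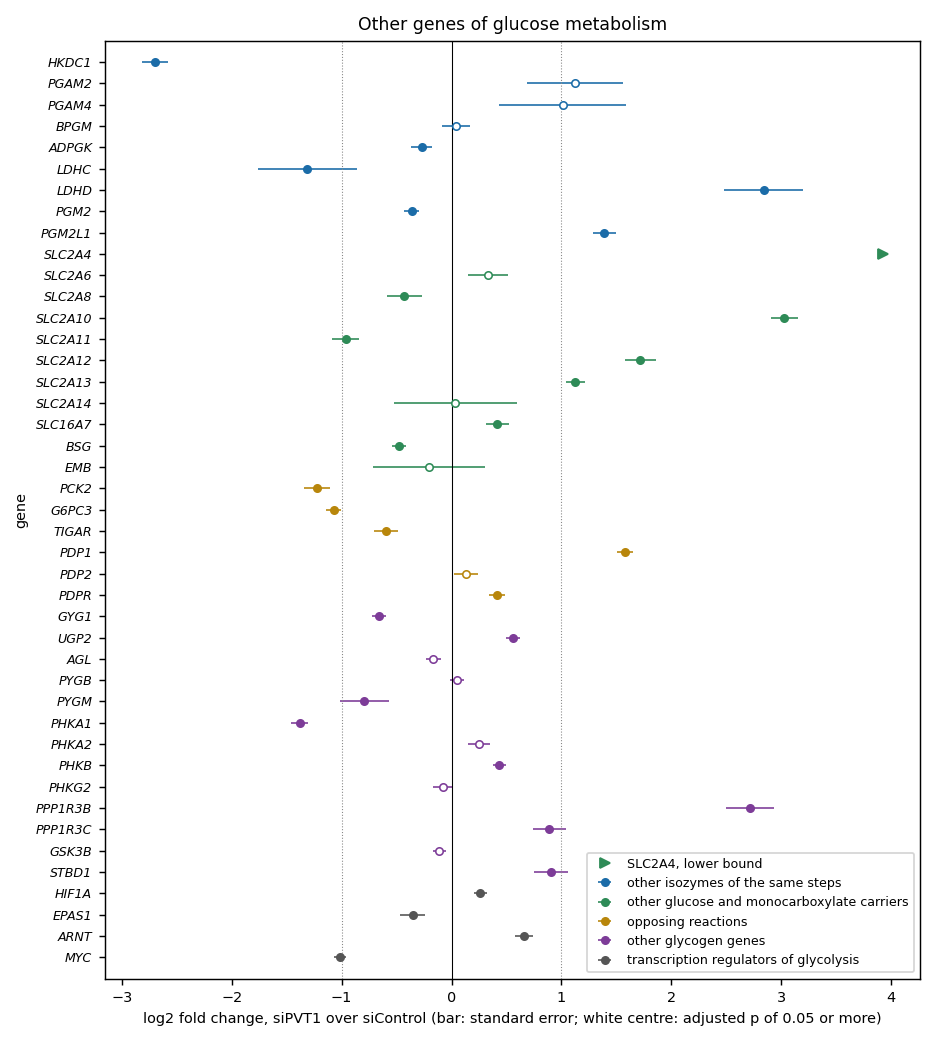
Log2 fold change (siPVT1 over siControl) of the tested genes of the same pathways outside the 33, and of their transcription regulators, with bars for the standard error, grouped by list. Points lie on both sides of 0, from HKDC1 at -2.70 upward, and SLC2A4 is drawn as a lower bound because it had at most 1 count in any siControl library.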

How the data were processed

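Gene-level RNA levels were measured in 6 SK-OV3 libraries, 3 per group, grouped by the treatment given in the labels. The authors deposited estimated counts from Salmon, summed per gene symbol, with no normalization. The submitters' processing notes name bcl2fastq (2.20.0), STAR (2.7.3a), Salmon (0.14.1), DESeq2 (1.28.1) and GRCh38.p13, and the strand setting is not given in the sources used here. The 33 genes and all lists were chosen with earlier results of these data known. Counts were rounded and tested in R (4.3.3) with edgeR (4.0.16), by TMM scaling and the quasi-likelihood test on all 6 libraries, over the 19008 genes that reached 5 normalized counts in 3 or more libraries. P-values were adjusted by Benjamini-Hochberg over all of them. Calls needed an adjusted p under 0.05 and a log2 fold change of at least 1 in size. The scripts were tested on simulated data. A leukocyte marker and the sum that needs it are not reported here. All 33 genes are named, and others only where past both thresholds, where they are a near-identical copy, or where they are transcription regulators. Exons of 12 of the 33 genes overlap those of another gene in the table. Of these other genes, PFN1, YOD1, SENP1, SAMD14, CSNK1D, SLC16A1-AS1, UCN2, ITGB3BP and ATP7A were named after their values were seen, as was the pseudogene LDHAP4. Ratios of related genes used a pseudocount of 0.5, lengths came from GENCODE (release 44), and promoter windows from RefSeq. Depth was 28383171 to 35059576 counts per library. No pair of replicates agreed within sampling noise (the lowest chi-square divided by its degrees of freedom was 1.75), so none was taken as a duplicate. Alternatives were DESeq2 (1.42.0), other scalings and filters, a replicate block, sums with pseudogenes, other pseudocounts and lengths, and leaving out each library.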

Additional observations from a re-analysis of the deposited data

How the results depend on the processing

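Under DESeq2, DESeq2 size factors in edgeR, either other filter and the replicate block, 14 of the 33 genes were called higher and 0 lower. With scaling by the total count, 11 were called higher, 4 were lower by adjusted p with PFKM at -0.17, the median of the 33 genes was 0.76, PYGL turned to -0.13, and 43.8% of all called genes were higher in siPVT1 in place of 55.1%. Leaving out each library in turn gave 14 to 16 genes called higher, 26 to 28 higher and 1 to 3 lower by adjusted p, and medians of 0.86 to 0.94. In these fits PFKM ranged from -0.098 to 0.020 (above 0 without siControl replicate 3) and PYGL from -0.023 to 0.039 (below 0 without siControl replicate 2 or siPVT1 replicate 3). The difference in the ALDOC to ALDOA log2 ratio ranged from -0.055 to 0.25 (below 0 without siControl replicate 1 or siPVT1 replicate 3). With the union of exons as length, the PDK3 share was lower in siPVT1 by 1.36 percentage points (difference -1.36). The cause of these changes was not tested. Over all tested genes, the deviations of same-numbered libraries from their group means had correlations of -0.0324, 0.0205 and 0.000856. Since they pool all genes, such low values cannot exclude a batch that libraries of the same number share. The replicate block gave 3924 called genes in place of 4081. Leaving out 1 library gave 3507 to 4239, and PVT1, for which these settings were added after the data were seen, ranged from -0.80 to -0.62. Low counts limit PDK4 and ALDOC, and the smallest exact p of 0.1 limits every ratio and share.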
